A study of Homo sapiens with 6 samples.

Results

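The 36 genes described here encode aminoacyl-tRNA synthetases, 20 cytosolic and 16 mitochondrial, out of 16934 genes in the deposited table. They were chosen by gene symbol, and every one of them was found in the table. Those whose newer name adds a final 1 stood there under the older symbol (AARS, not AARS1). Genes whose symbol ends in 2 were taken as mitochondrial. GARS and KARS, each of which encodes both the cytosolic and the mitochondrial enzyme, were placed with the cytosolic genes. RNA had been sequenced from A375, an established human melanoma cell line with an activating BRAF mutation, after editing with the Alt-R CRISPR-Cas9 system. Of 6 libraries, 3 came from cells given a non-targeting control guide RNA (sgRNA) and 3 from cells given an sgRNA against POLK, the gene of the error-prone DNA polymerase kappa. Cas9 was delivered to both groups. The study asks how oncogenic signalling regulates this polymerase and what it adds to drug resistance, and the comparison asks which transcripts differ after POLK editing.

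An aminoacyl-tRNA synthetase joins an amino acid to its matching tRNA, the step that fixes the genetic code before the ribosome reads it. Cytosol and mitochondrion each need a full set of charged tRNAs, and for most amino acids separate nuclear genes serve the compartments. In the cytosol several of the enzymes sit together in a multisynthetase complex held by the scaffold proteins AIMP1, AIMP2 and EEF1E1. When amino acids run short, uncharged tRNA activates the kinase GCN2, and the transcription factor ATF4 that is made in response induces many of the cytosolic synthetase genes, but not the mitochondrial ones as a group.

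Library totals ranged from 42852645 to 56891905 counts, and counts of a member ran from 20 in a library (SARS2) to 33705 (FARSA). POLK mRNA was at 23.4, 24.0 and 22.4 counts per 1000000 (CPM) in the control libraries and 19.2, 17.2 and 18.1 CPM in the POLK sgRNA libraries, with no overlap (log2 fold change −0.36, SE 0.05, adjusted p = 7.9e-08 in edgeR). The labels call the treatment a knockout, and the mRNA level does not show how many alleles were edited. Of 10 melanoma markers 9 could be tested, and 6 rose and 1 fell (sum 2080 to 2095 CPM in control and 2340 to 2407 CPM in POLK sgRNA libraries). SOX10 was high, at 1049 to 1179 CPM, S100A1 rose by 1.60 on the log2 scale, and the pigment genes PMEL, MLANA and TYR were under 1 CPM in every library. Control library 1 stood apart in pigment genes: it held 19 counts of TYR where the other 5 libraries held 0, and DCT was at 1.49 CPM in it against 0.0208 to 0.263 CPM in the others. The summed level of 5 leukocyte markers was 17.4 to 17.6 CPM in control and 58.1 to 60.2 CPM in POLK sgRNA libraries. Of these markers CD68 and LYZ made up nearly all of the sum and rose, whereas PTPRC, CD3E and ITGAM were under 0.06 CPM in every library. Of 6 fibroblast markers 5 could be tested, and DCN and LUM rose and 2 fell (sum 8.79 to 11.2 and 12.5 to 13.7 CPM). Of 6 epithelial markers 5 could be tested, and KRT8 and KRT18 rose (sum 101 to 103 and 149 to 155 CPM). DCN and LUM (3.61 and 3.40 on the log2 scale) and KRT8 and KRT18 (0.42 and 0.61) lie on chromosome 12. The 40 tested genes nearest to each had median log2 fold changes of 0.54 to 0.62. The part of any of these marker differences in the results was not tested. Whether replicate libraries stem from different cultures or editing rounds is not stated in the labels, so the p-values rest on a spread that may be technical only. Differences between the edited populations and an effect of POLK editing cannot be told apart, and in bulk RNA fewer cells with a transcript and less of it per cell cannot be told apart either.

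The sequences at the starts of these genes bear on the ATF4 background given above, so promoter windows were searched for the core of the ATF4 response element, TGATGNAA, on both strands. RefSeq windows (GRCh38.p14, 250 bases before to 50 after an annotated start) matched 30 of the 36 members, all except AARS2, DARS, LARS, VARS, VARS2 and YARS. The core was found in 8 members, against 4.46% of the 27305 genes with a window. Of the 8, 7 are cytosolic (of 16 with a window) and 1 is mitochondrial (of 14). The 8 sites are shown in 30 bases each, read along the gene's own strand from 5′ to 3′, with the match in capitals.
AARS, chr16:70289675-70289704: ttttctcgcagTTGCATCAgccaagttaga
CARS, chr11:3057407-3057436: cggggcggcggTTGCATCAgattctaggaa
GARS, chr7:30594834-30594863: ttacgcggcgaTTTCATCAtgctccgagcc
IARS, chr9:92293692-92293721: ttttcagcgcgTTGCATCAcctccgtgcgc
MARS, chr12:57488053-57488082: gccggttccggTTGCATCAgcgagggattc
NARS, chr18:57621804-57621833: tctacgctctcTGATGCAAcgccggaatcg
TARS, chr5:33440956-33440985: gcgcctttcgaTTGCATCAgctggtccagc
YARS2, chr12:32756076-32756105: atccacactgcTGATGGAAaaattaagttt
In 6 of the 8 the match was TGATGCAA or its reverse complement TTGCATCA, and GARS and YARS2 had another letter at the open position. The match began 2 to 33 bases before the annotated start in CARS, MARS, IARS and GARS, 187 bases before it in AARS and 197 in YARS2, and after the start in TARS and NARS. These positions are from the start whose window holds the match. CARS, GARS and TARS each have another annotated start, and its window does not hold the core. In GARS the match lies before the inner start, at 30594878, but after the other, at 30594735. A match describes letters and does not show that a factor binds there.

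The whole windows are given for MARS, whose transcript rose most among the members, and for AARS, whose transcript moved against its neighbours on the chromosome, with the same capitals. In AARS, on the minus strand of chromosome 16, the core lies far upstream. In MARS, on the plus strand of chromosome 12, it lies at the RefSeq start, which is 12623 bases inside the span that GENCODE 29 gives the gene.
AARS, chr16:70289457-70289756: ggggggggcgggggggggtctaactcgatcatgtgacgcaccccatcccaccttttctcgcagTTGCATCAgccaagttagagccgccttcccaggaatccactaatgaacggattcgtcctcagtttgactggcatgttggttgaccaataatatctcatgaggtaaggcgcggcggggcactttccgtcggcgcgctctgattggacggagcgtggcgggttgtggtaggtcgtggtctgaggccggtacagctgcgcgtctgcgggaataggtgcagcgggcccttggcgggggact
MARS, chr12:57487818-57488117: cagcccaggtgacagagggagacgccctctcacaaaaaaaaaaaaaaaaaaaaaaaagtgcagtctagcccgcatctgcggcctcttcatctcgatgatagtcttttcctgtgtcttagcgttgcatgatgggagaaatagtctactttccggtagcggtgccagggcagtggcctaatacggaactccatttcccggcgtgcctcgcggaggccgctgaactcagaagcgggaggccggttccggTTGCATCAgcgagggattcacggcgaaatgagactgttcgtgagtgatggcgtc

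Synthetase transcripts moved in both directions, and the cytosolic genes carried nearly all of the larger differences. Of 36 members, all of which passed the filter on low counts, 17 were higher and 6 lower with the POLK sgRNA (a p under 0.05 in edgeR after Benjamini-Hochberg adjustment over all 13930 genes tested), where 32.8% of all genes tested were higher and 31.6% were lower. Among the 20 cytosolic genes 13 were higher and 4 lower, with a median log2 fold change of 0.16. Among the 16 mitochondrial genes 4 were higher and 2 lower, with a median of 0.02, and the median over all genes tested was 0.01. The share of mitochondrial genes called in either direction is under the 64.3% of all genes, and the share of cytosolic genes called is above it. The groups of libraries did not overlap in 18 cytosolic and 7 mitochondrial genes, beside 67.7% of all genes.

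Changes were modest in size. The median absolute log2 fold change was 0.19 for the cytosolic genes, 0.05 for the mitochondrial genes and 0.18 for all genes tested. The cytosolic genes were also counted more deeply, with a median of 14506 counts per library against 2013 for the mitochondrial genes, and their median standard error was 0.023 against 0.035. At least 0.3 on the log2 scale was reached by 3 cytosolic genes upward (MARS, SARS and YARS) and by 3 downward (KARS, RARS and DARS), and by no mitochondrial gene, where 18.5% of all genes rose and 15.4% fell by that much. Summed over the 20 cytosolic genes the level was 5583, 5583 and 5674 CPM in control and 6152, 6096 and 6107 CPM in POLK sgRNA libraries, or 109% of control. The sum over the 16 mitochondrial genes was 912 to 926 CPM in control and 927 to 942 CPM in POLK sgRNA libraries, or 102%.

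**Figure D1:**
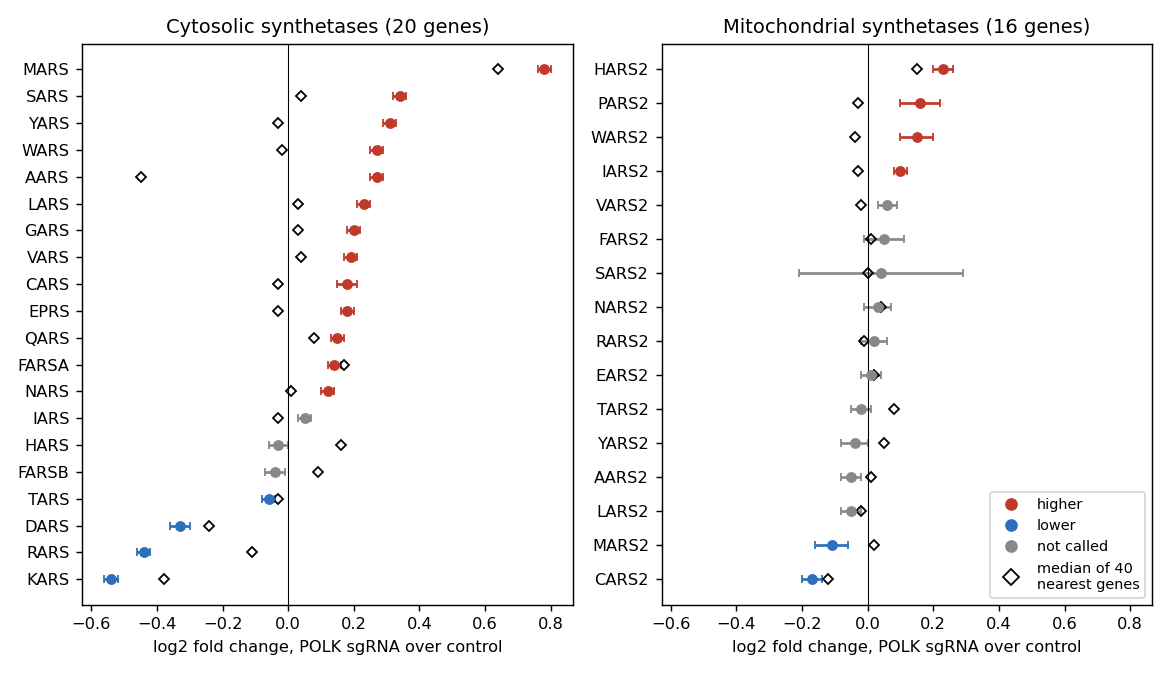
Log2 fold change of each synthetase gene (x axis, POLK sgRNA over control; bars are standard errors) in the cytosolic and mitochondrial lists, coloured by the call at an adjusted p under 0.05; open diamonds mark the median of the 40 nearest tested genes on the chromosome. MARS at 0.78 and KARS at −0.54 lie at the ends, and the diamond of AARS lies far to the left of its point.

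MARS encodes the cytosolic methionyl-tRNA synthetase, which charges the initiator tRNA as well as the elongator, and it rose most. Its level was 242, 241 and 243 CPM in the control libraries and 415, 415 and 420 CPM in the POLK sgRNA libraries. Every POLK sgRNA library lay far above every control library, at 172% of the control mean (log2 fold change 0.78, SE 0.02, adjusted p = 2.9e-25 in edgeR's test). MARS (ENSG00000166986) lies on chromosome 12, 57475445 to 57517569 on the plus strand (GRCh38, GENCODE 29), and its exons overlap those of DDIT3 on the other strand over 2.1% of their length. Its mitochondrial counterpart MARS2 did not share the rise, at 23.7, 23.2 and 22.9 CPM in control and 23.3, 20.5 and 20.6 CPM with the POLK sgRNA. MARS2 was called lower (−0.11, adjusted p = 0.044) although the groups overlapped. That call was lost on leaving out control library 1 or 2 (adjusted p = 0.096 and 0.075) or POLK sgRNA library 2 or 3 (0.20 and 0.19), and in DESeq2 (0.11).

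SARS, the seryl-tRNA synthetase gene, and YARS, the tyrosyl-tRNA synthetase gene, were next. SARS had 167, 168 and 172 CPM in control and 210, 212 and 217 CPM with the POLK sgRNA (0.34, SE 0.02, adjusted p = 2.4e-14 in edgeR's test). YARS had 285, 281 and 283 CPM in control and 352, 352 and 347 CPM with the POLK sgRNA (0.31, SE 0.02, adjusted p = 2.6e-14). In both genes the spread within a group was a few CPM, and the groups lay far apart. SARS lies on chromosome 1, 109213918 to 109238169 (plus strand), and YARS on the same chromosome, 32775237 to 32818153 (minus strand), where its exons share 7.7% of their length with S100PBP.

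WARS encodes the tryptophanyl-tRNA synthetase, which is also known as an interferon-induced gene. It had 253, 259 and 266 CPM in control and 315, 309 and 317 CPM with the POLK sgRNA (0.27, SE 0.02, adjusted p = 3.5e-12 in edgeR's test). No POLK sgRNA library came down to the highest control library. RefSeq gives WARS (chromosome 14, minus strand) more than one start. The window of the inner start holds the core of an interferon-stimulated response element, GAAA on either side of any 2 bases, 55 bases before that start, and 4.38% of all genes with a window hold that core. That window is printed with the core in capitals.
WARS, chr14:100375298-100375597: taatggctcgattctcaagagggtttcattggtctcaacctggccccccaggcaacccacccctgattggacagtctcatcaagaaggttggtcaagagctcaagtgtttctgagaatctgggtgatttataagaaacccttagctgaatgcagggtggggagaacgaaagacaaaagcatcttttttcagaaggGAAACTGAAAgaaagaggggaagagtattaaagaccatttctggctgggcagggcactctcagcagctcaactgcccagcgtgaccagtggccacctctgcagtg
The only other member with this core was EARS2, which did not differ, at 69.0 to 70.9 CPM in control and 67.6 to 72.0 CPM with the POLK sgRNA (adjusted p = 0.80 in edgeR's test).

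LARS charges tRNA with leucine and is also known as a leucine sensor for the growth kinase complex mTORC1. It had 269, 264 and 264 CPM in control and 311, 313 and 308 CPM with the POLK sgRNA (0.23, SE 0.02, adjusted p = 8.6e-11 in edgeR's test). GARS, which charges glycine in both compartments, had 299, 296 and 296 CPM in control and 342, 340 and 340 CPM with the POLK sgRNA (0.20, SE 0.02, adjusted p = 1.0e-09). For both genes the libraries of a group lay within a few CPM of each other. LARS lies on chromosome 5, 146113038 to 146182660 (minus strand), and GARS on chromosome 7, 30594681 to 30634033 (plus strand). A further 6 cytosolic genes rose less, with log2 fold changes of 0.12 to 0.19. They were VARS (valine), CARS (cysteine), EPRS (the fused enzyme for glutamate and proline), QARS (glutamine), FARSA (the alpha subunit for phenylalanine) and NARS (asparagine).

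**Figure D2:**
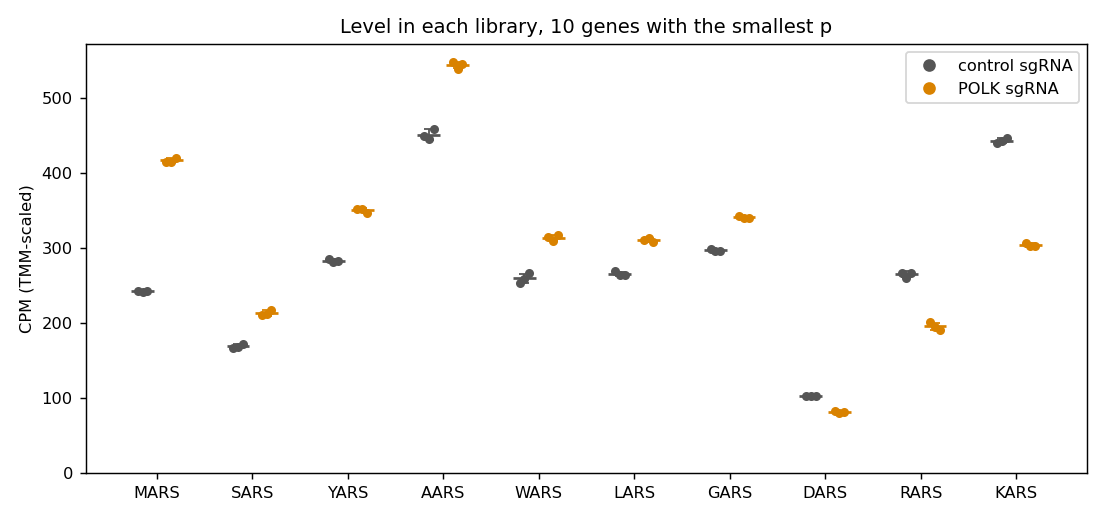
Level of the 10 synthetase genes with the smallest p in each library (y axis, CPM on TMM-scaled library sizes; grey, control sgRNA; orange, POLK sgRNA; bars are the mean and SD of 3 libraries). The groups do not overlap in any of the 10, with MARS at 241 to 243 against 415 to 420 CPM and KARS at 440 to 447 against 302 to 307 CPM.

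The genes that fell furthest were all cytosolic and all encode synthetases of the multisynthetase complex. KARS, the lysyl-tRNA synthetase gene, had 440, 442 and 447 CPM in control and 307, 303 and 302 CPM with the POLK sgRNA, 68.6% of the control mean (−0.54, SE 0.02, adjusted p = 5.3e-21 in edgeR's test). RARS, for arginine, had 267, 260 and 267 CPM in control and 201, 194 and 191 CPM with the POLK sgRNA (−0.44, SE 0.02, adjusted p = 2.9e-17). DARS, for aspartate, had 102 CPM in each control library and 82.2, 80.5 and 81.8 CPM with the POLK sgRNA (−0.33, SE 0.03, adjusted p = 1.1e-12). In all 3 genes the highest POLK sgRNA library lay well under the lowest control library. KARS lies on chromosome 16, 75627474 to 75648643 (minus strand), RARS on chromosome 5, 168486445 to 168519299 (plus strand), and DARS on chromosome 2, 135906677 to 135986100 (minus strand). TARS, for threonine, was called lower by a small margin, at 285 to 291 CPM in control and 272 to 283 CPM with the POLK sgRNA (−0.06, adjusted p = 0.021). It lost the call with library size alone as the scaling (0.075) and on leaving out POLK sgRNA library 2 or 3 (0.082 and 0.11).

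Transcripts of the multisynthetase complex moved in both directions, and the counts stand beside 32.8% higher and 31.6% lower among all genes. Of its 8 synthetase genes 4 rose (MARS, LARS, EPRS and QARS), 3 fell (KARS, RARS and DARS), and IARS, for isoleucine, was not called, at 393 to 402 CPM in control and 408 to 414 CPM with the POLK sgRNA (0.05, adjusted p = 0.061 in edgeR's test). IARS was called higher with library size alone as the scaling (adjusted p = 0.010) and in limma-voom (0.048). Their log2 fold changes ran from −0.54 to 0.78, around a median of 0.10. Of the scaffold genes AIMP1 fell from 48.6 ± 1.22 to 44.0 ± 0.451 CPM (SD, n = 3; −0.15, adjusted p = 0.00031 in edgeR's test) and AIMP2 by 0.09 on the log2 scale (adjusted p = 0.028). EEF1E1, at 4.46 and 4.69 CPM, was not called. Of the 12 cytosolic synthetase genes outside the complex, 9 rose and 1 (TARS) fell, with a median of 0.18, while HARS and FARSB were not called.

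A list of 12 cytosolic synthetase genes known as ATF4 targets held 10 that rose (MARS, SARS, YARS, WARS, AARS, LARS, GARS, CARS, EPRS and NARS), 1 that fell (TARS) and 1 that was not called (IARS), with a median log2 fold change of 0.21, beside 32.8% higher and 31.6% lower among all genes. Of the other 8 cytosolic genes 3 rose and 3 fell, shares close to those of all genes, with a median of −0.03. The difference between these lists was not tested. Promoter letters gave 2 further lists, to be read against the same shares of all genes. Of the 7 cytosolic genes whose window holds the core TGATGNAA, 5 rose and 1 fell (median 0.18), and of the 9 whose window does not, 5 rose and 2 fell (median 0.14). Within the ATF4 list the medians stood the other way round. The same 7 genes hold the core there, and the 3 whose window does not all rose (median 0.27). LARS and YARS, of that list, have no window. MARS holds the core and rose by 0.78, TARS holds it and fell by 0.06, and SARS and WARS rose without it. The 40 nearest tested genes had a median of 0.64 around MARS and −0.45 around AARS, both in the ATF4 list. Among the other 8 genes it was −0.38 around KARS, −0.24 around DARS, −0.11 around RARS, 0.16 around HARS and 0.17 around FARSA. The part of these local shifts in the difference between the lists was not tested.

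Mitochondrial synthetase transcripts stayed close to their control levels. HARS2, for histidine, rose most of them, with 42.7, 44.0 and 44.5 CPM in control and 51.1, 52.6 and 49.8 CPM with the POLK sgRNA (0.23, SE 0.03, adjusted p = 5.6e-07 in edgeR's test). With the median of its 40 nearest genes (0.15) subtracted its difference was 0.08 (adjusted p = 0.044), under those of PARS2 and WARS2 (0.19 each). IARS2 rose from 298 ± 4.56 to 318 ± 4.51 CPM (SD, n = 3; 0.10, adjusted p = 0.00039). PARS2, for proline, had 10.2, 11.6 and 11.5 CPM in control and 12.7, 11.9 and 12.7 CPM with the POLK sgRNA (adjusted p = 0.023), and WARS2 had 24.6, 23.7 and 21.2 CPM in control and 25.1, 26.9 and 25.3 CPM with the POLK sgRNA (adjusted p = 0.0063). In both genes the groups came within 1 CPM of each other. The call of PARS2 was lost on leaving out control library 1 (0.18) or POLK sgRNA library 1 or 3 (0.073 and 0.056) and in DESeq2 (0.10). That of WARS2 was lost on leaving out control library 3 (0.11) or POLK sgRNA library 2 (0.050).

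CARS2, for cysteine, was the mitochondrial gene that fell furthest. Its level was 95.6, 91.6 and 87.7 CPM in control and 80.7, 82.8 and 80.3 CPM with the POLK sgRNA (−0.17, SE 0.03, adjusted p = 6.7e-06 in edgeR's test), and the groups did not overlap. The cytosolic gene for the same amino acid, CARS, went the other way, from 115 ± 0.854 to 131 ± 2.77 CPM (SD, n = 3; 0.18, adjusted p = 1.7e-07). The 10 mitochondrial genes that were not called (AARS2, EARS2, FARS2, LARS2, NARS2, RARS2, SARS2, TARS2, VARS2 and YARS2) had log2 fold changes of −0.05 to 0.06. SARS2 was the one member counted too thinly to judge. It had 0.416 to 0.641 CPM, and 83.1% of its exon length is shared with other genes, so reads from it may have been left uncounted or placed elsewhere.

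Where an amino acid has a gene for each compartment, the ratio of the cytosolic to the mitochondrial transcript was taken in each library, over 16 pairs (FARSA for FARS2, and EPRS for both EARS2 and PARS2). The ratio was higher with the POLK sgRNA in 12 pairs and lower in 4, with a median difference of 0.12 on the log2 scale. The groups did not overlap in 10 pairs, 8 higher and 2 lower. Among all genes tested, taken singly, the groups did not overlap in 67.7%, and no such share was computed for other gene pairs. The log2 ratio of MARS to MARS2 was 3.35, 3.38 and 3.41 in control and 4.16, 4.34 and 4.35 with the POLK sgRNA, a difference of 0.90. YARS over YARS2 and CARS over CARS2 each gained 0.35, AARS over AARS2 gained 0.32 and LARS over LARS2 gained 0.28. The ratio of RARS to RARS2 went down by the most, from 2.74, 2.77 and 2.73 to 2.32, 2.29 and 2.27, and that of HARS to HARS2 fell from 2.12, 2.13 and 2.18 to 1.92, 1.86 and 1.91. For each of these 7 pairs the exact two-sided permutation test gave p = 0.1, the smallest that 3 against 3 libraries allow, and 0.16 after adjustment over the 16 pairs, so no pair can pass the threshold in this test.

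HARS and HARS2 lie head to head on chromosome 5, and their promoter windows share 184 bases (140691321 to 140691504, GRCh38.p14). HARS had 186, 193 and 202 CPM in control and 193, 191 and 187 CPM with the POLK sgRNA (−0.03, SE 0.03, adjusted p = 0.41 in edgeR's test), with overlapping groups, whereas HARS2 rose by 0.23, and the ratio of the pair is the one test made of their difference. The exons of the pair overlap on opposite strands over 9.5% of HARS and 14.2% of HARS2, and the library kit does not mark strand. Reads from the shared bases may have been left uncounted or placed with the other gene, since the counting tool is not known.

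**Figure D3:**
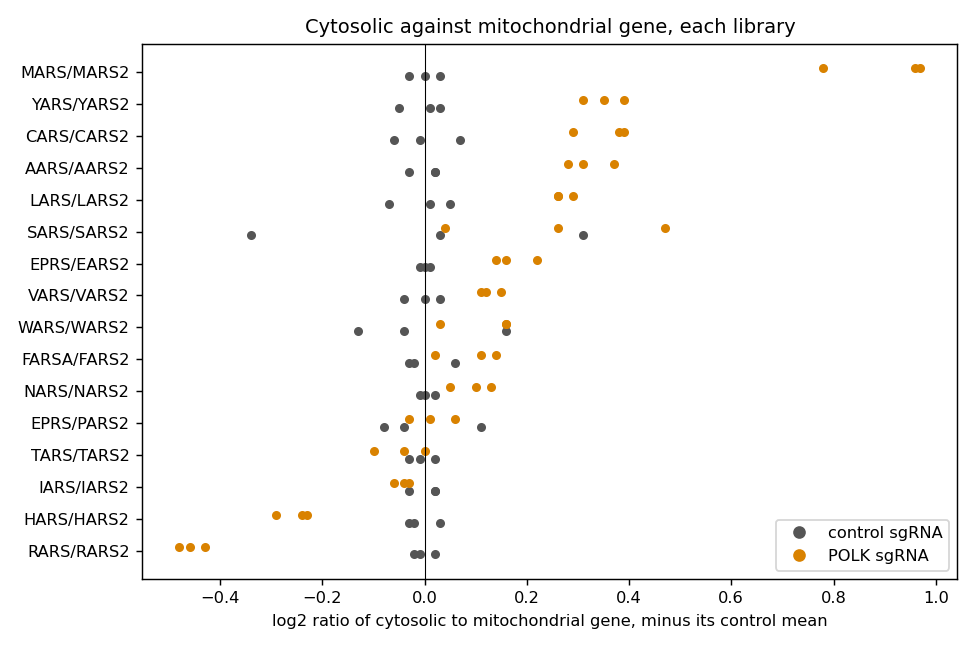
Log2 ratio of the cytosolic to the mitochondrial transcript in each library, minus the control mean of the pair (x axis), for 16 pairs; grey points are control and orange points POLK sgRNA libraries. MARS over MARS2 lies furthest to the right, with a difference of 0.90, and RARS over RARS2 furthest to the left.

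Several synthetase genes moved with the genes around them. For each member the median log2 fold change of the 40 nearest tested genes on its chromosome was taken, and it was over 0.1 in size for 9 members and between −0.04 and 0.09 for the other 27. Around MARS the median was 0.64 and 37 of 40 neighbours rose. Around KARS the median was −0.38 and 30 of 40 fell, and around DARS it was −0.24 and 27 of 40 fell. Around RARS it was −0.11, and only 5 of the 40 neighbours lay lower than RARS. Around SARS, YARS, WARS, LARS and GARS the medians were between −0.03 and 0.04.

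AARS, the alanyl-tRNA synthetase gene, was the exception in the other direction. It had 449, 445 and 459 CPM in control and 548, 539 and 545 CPM with the POLK sgRNA (0.27, SE 0.02, adjusted p = 6.4e-13 in edgeR's test), with no overlap. Its 40 nearest tested genes, which lie within 1.72 Mb, had a median of −0.45, 36 of them fell and none rose. No neighbour had a log2 fold change above that of AARS. AARS lies on chromosome 16, 70252295 to 70289543 (minus strand), on the same chromosome as KARS, which fell with its neighbours. No exon of AARS or KARS overlaps another annotated gene.

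When the local median was taken out of each gene's change before the test, 17 members were called higher and 8 lower, beside 30.2% and 31.2% of all genes (61.4% in either direction). MARS kept a difference of 0.14 and KARS one of −0.16, while that of AARS grew to 0.72. The difference of RARS was −0.33 and that of DARS −0.08. FARSA went from 0.14 to −0.03 (adjusted p = 0.32 in edgeR's test), and CARS2 and TARS also lost their calls (adjusted p = 0.12 and 0.25), whereas IARS was then called higher and HARS, FARSB, TARS2 and YARS2 were called lower. The local median enters this fit as a known value, with no error of its own.

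**Figure D4:**
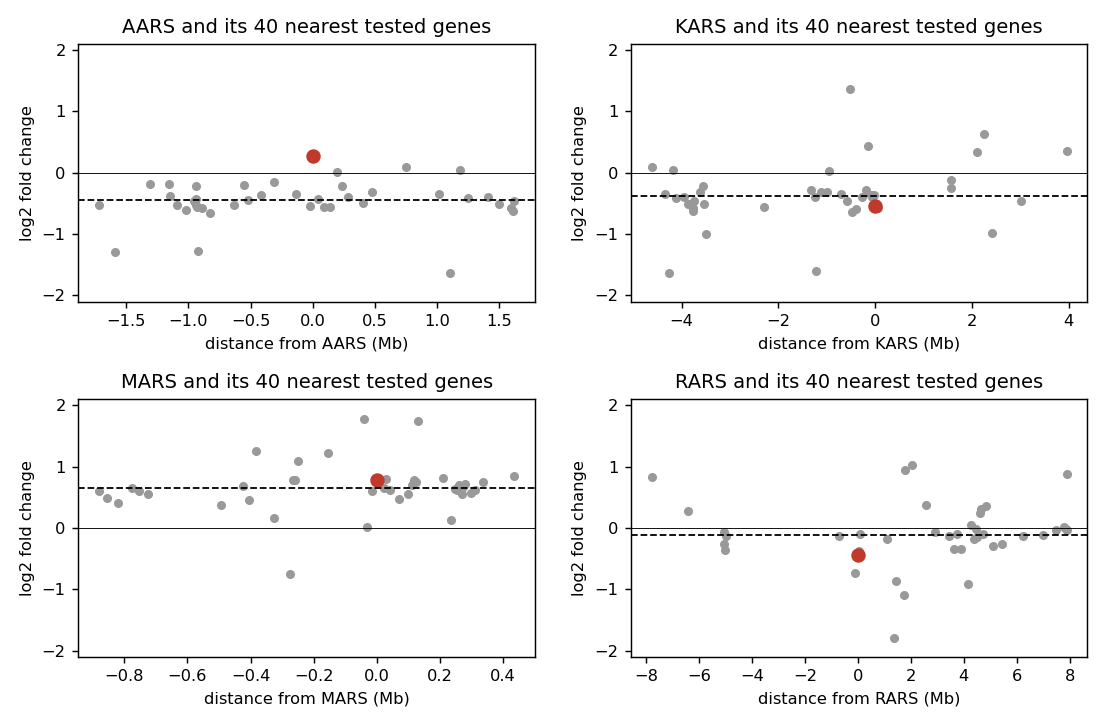
Log2 fold change (y axis) of AARS, KARS, MARS and RARS (red) and of the 40 tested genes nearest to each (grey) by distance in Mb (x axis); the dashed line is the median of the 40. AARS lies above all of its neighbours, whose median is −0.45, while MARS and KARS lie near medians of 0.64 and −0.38.

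Levels of different genes were compared per kilobase of merged exon (CPM per kb, a level rather than a difference). In control cells the median was 82.0 CPM per kb for the cytosolic and 11.5 for the mitochondrial genes. FARSA was highest at 254 ± 8.20 CPM per kb (SD, n = 3), followed by KARS at 182 ± 1.64 and AARS at 130 ± 2.04, and FARSB, the beta subunit for the same enzyme as FARSA, was the lowest cytosolic gene at 22.8 ± 0.459. IARS2, at 83.6 ± 1.28, stood among the cytosolic genes, and apart from it only CARS2 (48.8 ± 2.09) and TARS2 (33.3 ± 0.227) lay above FARSB. In 8 of the 35 steps down this order the neighbouring genes overlapped between control libraries, among them IARS2 and MARS, MARS and IARS, and YARS and SARS. With the POLK sgRNA, MARS moved from the 10th to the 3rd place, at 143 ± 0.980 CPM per kb, KARS from the 2nd to the 5th and RARS from the 4th to the 11th. Transcript levels per kb depend on the exon annotation.

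**Figure D5:**
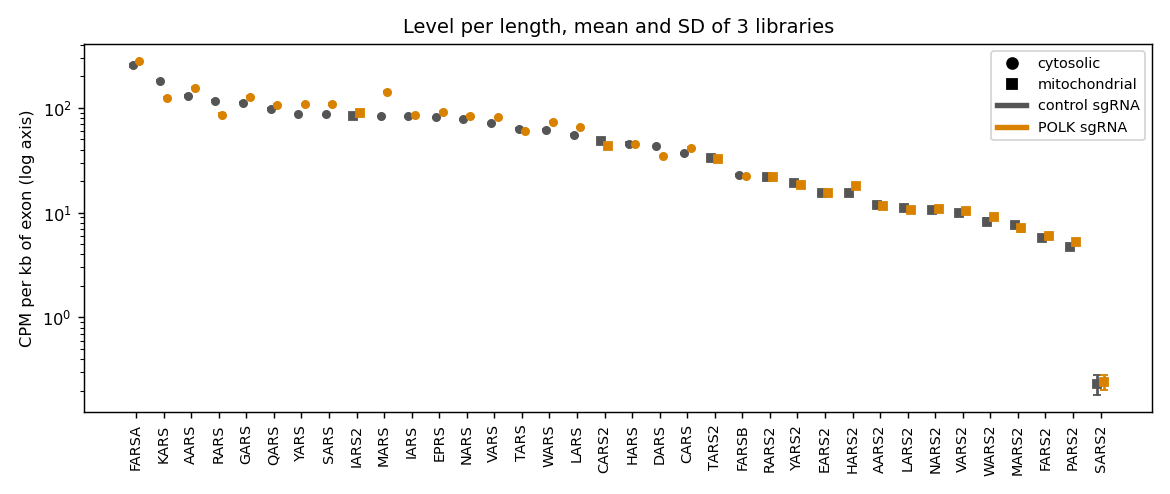
Level of each synthetase gene per kilobase of merged exon (y axis, log scale; mean and SD of 3 libraries), in the order of the control level; circles are cytosolic and squares mitochondrial genes, grey is control and orange POLK sgRNA. FARSA is highest at 254 CPM per kb in control, and MARS rises from 83.3 to 143.

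Lists of genes that act around the synthetases were counted in the same way, to be read against 32.8% higher and 31.6% lower among all genes. Of 11 measured genes for other synthetases, mitochondrial amidation and proofreading, 3 rose and none fell: DTD1, which removes wrongly joined D-amino acids, by 0.55, GATC, a subunit of the mitochondrial amidotransferase, by 0.39, and SEPSECS, of selenocysteine synthesis, by 0.12. DTD1 and GATC lie where the 40 nearest genes had medians of 0.60. Of 7 genes that deliver charged tRNA to the ribosome 4 rose and 2 fell, but only 2 rose without control library 1, control library 2 or POLK sgRNA library 2. EEF1A2, the tissue-restricted form of elongation factor 1 alpha, fell from 197, 198 and 207 CPM to 43.7, 46.5 and 48.6 CPM (−2.12, SE 0.03, adjusted p = 6.6e-28 in edgeR's test), while the common form EEF1A1 rose from 7450 ± 81.8 to 8388 ± 67.7 CPM (SD, n = 3; 0.17, adjusted p = 1.7e-09). The mitochondrial elongation factor gene TSFM rose by 0.58, where its neighbours had a median of 0.65.

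Of 30 genes of tRNA maturation and export 8 rose and 13 fell, with a median of −0.04. XPOT, the tRNA exporter, rose by 0.75, PUS1, which makes pseudouridine, by 0.74 and TRMT6, a subunit of a tRNA methyltransferase, by 0.56, with local medians of 0.57, 0.53 and 0.61. Of 7 genes that sense or respond to uncharged tRNA, 2 rose and 3 fell. GCN1, the partner that activates GCN2, rose from 177, 176 and 180 CPM to 350, 351 and 332 CPM (0.96, SE 0.02, adjusted p = 2.3e-26 in edgeR's test), with a local median of 0.60, and ATF4 rose from 236, 231 and 225 CPM to 344, 328 and 323 CPM (0.52, adjusted p = 9.8e-19) with a local median of 0.05. EIF2AK4, the gene of GCN2 itself, fell by 0.07 (adjusted p = 0.012), EIF2S1, its substrate, by 0.15, and PPP1R15A, which guides removal of the phosphate, by 0.14. IMPACT and PPP1R15B were not called. Of the genes named from these lists, XPOT, PUS1, GCN1, GATC and TSFM lie on chromosome 12, as MARS does, and TRMT6 and DTD1 on chromosome 20. With the local median subtracted, the difference was 0.35 for GCN1, 0.21 for PUS1 and 0.19 for XPOT. For GATC, TSFM, TRMT6 and DTD1 it was −0.21 to −0.04. The part of the local shifts in the rises of these genes was not tested.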

How the data were processed

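The authors deposited raw counts per gene, whole numbers that are not normalized, for 6 libraries. The build GRCh38 and the tools STAR, Trimmomatic, FastQC and DESeq2 are named, per the submitters' processing notes. Neither the counting tool nor the annotation release was given in the sources used here. Per the labels' protocols the kit was TruSeq RNA V2, which does not mark strand.

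Counts were analysed in R 4.3.3 over the whole table with edgeR 4.0.16 (filterByExpr with minimum count 10, 13930 of 16934 genes kept, TMM scaling, robust quasi-likelihood test, no covariates), and only the members' results are printed. Each standard error is the size of the log2 fold change divided by the root of its F statistic. CPM use TMM-scaled library sizes. Gene positions, exon lengths and overlaps came from GENCODE 29. The edgeR procedure was also run on simulated counts with a common dispersion and few changed genes. In these data 64.3% of genes were called, so that run does not give the error rate here. Alternatives were other scalings and filters, limma-voom (limma 3.58.1), DESeq2 1.42.0, a block for replicate number, omission of each library, and subtraction of the median of the 40 nearest genes. Libraries of a group differed by more than sampling noise (chi-square per degree of freedom 1.97 to 4.02) and were counted as 3. The members and lists were chosen with earlier results of these data known, as was the rule for named genes: any member, with all libraries for the 10 with the smallest p and for the pairs with the largest differences, any gene of the sensing list, and the 3 genes with the smallest p in each other list. Values of other genes (AIMP1, AIMP2, EEF1E1 and single cell type markers) were added after they were seen.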

Additional observations from a re-analysis of the deposited data

How the results depend on the processing

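Of 503 values of single members under 14 alternatives, 466 kept their direction and side of the threshold. The number of members called higher was 16 to 17 and of those called lower 4 to 6 on leaving out each library. For the cytosolic genes these were 13 and 3 to 4, and for the mitochondrial genes 3 to 4 and 1 to 2. The count of mitochondrial genes called lower was 1, not 2, with library size alone, DESeq2 and limma-voom, since MARS2 lost its call. The median log2 fold change was 0.05 to 0.08 for all members, 0.15 to 0.17 for the cytosolic and −0.0026 to 0.02 for the mitochondrial genes on leaving out each library. With library size alone these medians were 0.07, 0.18 and 0.04, and with the local median subtracted that of the cytosolic genes was 0.13. Directions turned only in FARSA, which lost its call on subtraction of the local median (−0.03), and in members that were not called: EARS2 and NARS2 (−0.01 each with local subtraction) and, on leaving out each library, EARS2 (−0.01 to 0.04), FARS2 (−0.0033 to 0.08), HARS (−0.06 to 0.00043), RARS2 (−0.01 to 0.03) and SARS2 (−0.10 to 0.25). The ratio of EPRS to PARS2 turned to −0.02, −0.0004 and −0.0048 without control library 2, control library 3 or POLK sgRNA library 2. Over all genes 50.2% were called in DESeq2 and 63.9% in limma-voom.

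The replicate number as a block gave 17 members higher and 6 lower and changed no call. Same-numbered libraries did not deviate together (correlations −0.0361 to 0.0132). With 3 libraries in a group, such correlations cannot show whether same-numbered libraries shared a culture, a harvest or a sequencing run. Depth limits what can be said of SARS2, with a standard error of 0.25.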
